A study of Mus musculus with 30 samples.

Results

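The cell cycle and replication genes described here are 51 named mouse genes that proliferating cells use to copy DNA and to divide. They were taken as a list and split by role into 20 S-phase genes and 31 mitotic genes. All 51 were found, by symbol, among the 55011 genes of the mTEChi count files and among the 35999 gene symbols of the B6 Aire-GFP+ files, and all 51 passed the filter on low counts in both. Before DNA is copied, the MCM helicase is loaded onto origins by Cdc6 and Cdt1. Cyclin E and E2F then drive entry into S phase, where Pcna clamps the polymerases to DNA and ribonucleotide reductase supplies deoxynucleotides. Mitosis follows under cyclin B and Cdk1, with kinesins, kinetochore proteins and Aurora and Polo kinases moving the chromosomes and the anaphase-promoting complex ending the division. In the thymic medulla, dividing epithelial cells are known among the younger cells with high MHC class II, and most cells that already make the Aire protein are known to have left the cycle.

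The study sequenced poly(A) RNA of medullary thymic epithelial cells (mTECs) from female mice 4 to 6 weeks old, 1000 sorted cells per library, and 21 of its 30 samples are used here. In C57BL/6J mice, Aire-GFP+ mTECs, which carry a fluorescent reporter of the Aire locus, came from Aire-KO mice (2 libraries) and WT mice (3 libraries). The other 16 libraries are C57BL/6J mTEChi, the name given to mTECs with high MHC class II, in 8 groups of 2. These groups are Aire-KO and WT mice injected intraperitoneally with PBS, Aire-KO and WT mice injected with spermidine, WT mice injected with topotecan and WT mice injected with DMSO, and mice labelled Nfe2l2 fl/fl and Nfe2l2 +/+, which both carry Foxn1-cre, a driver known to act in thymic epithelial cells. The labels state neither doses nor injection times, nor which Aire allele was used. The 9 samples of NOD/ShiLtJ mice and of the cross of both strains are not analysed here.

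The libraries held 6577405 to 12613034 counts in the Aire-GFP+ set and 2027205 to 5724045 counts in the mTEChi set. A single member had between 9 and 1465 counts per library in the Aire-GFP+ set and between 4 and 802 in the mTEChi set. Aire RNA did not mark the knockout: it stood at 1508 and 1774 CPM (counts scaled to the size of the library) in Aire-KO and between 1603 and 1686 CPM in WT Aire-GFP+ cells, and at 4096 to 5075 CPM in the 4 Aire-KO mTEChi libraries, against 641 to 1930 CPM in the other 12. Ins2, an Aire-dependent gene that was picked as a check after its values were seen, was at 0 in both Aire-KO Aire-GFP+ libraries and between 14.5 and 21.7 CPM in the WT libraries. In mTEChi it was at 0 to 0.518 CPM in the Aire-KO libraries and at 3.73 to 29.4 CPM in the others. Nfe2l2 RNA was at 106 and 86.6 CPM in the libraries labelled Nfe2l2 fl/fl, against 90.7 and 91.4 CPM in those labelled Nfe2l2 +/+, so its level did not check those labels. Epcam, which marks epithelial cells, was at 592 CPM or more in every library. Nothing in the labels ties replicates to separate mice, so p-values measure the spread between these libraries, which may be technical. In bulk RNA, fewer cells in cycle and less RNA per cell cannot be told apart.

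Per length, the members with the highest mean level over the 5 Aire-GFP+ libraries were Cdk1, the mitotic kinase, Ube2c, the ubiquitin-conjugating enzyme of the anaphase-promoting complex, and Pcna, the sliding clamp. On the authors' TPM scale, which counts transcripts after dividing by their length, Cdk1 was at 161 and 122 TPM in Aire-KO and at 206, 159 and 193 TPM in WT libraries. Ube2c was at 73.0 and 82.9 TPM in Aire-KO and at 161, 84.9 and 138 TPM in WT libraries. Pcna was at 97.0 and 74.6 TPM in Aire-KO and at 78.4, 59.9 and 84.6 TPM in WT libraries. The order differed by genotype: the mean of Pcna (85.8 TPM) was above that of Ube2c (77.9 TPM) in Aire-KO, and in WT the mean of Cdc20, the activator of the anaphase-promoting complex (80.2 TPM), was above that of Pcna (74.3 TPM). The 3 members with the lowest mean TPM were E2f1, the S-phase transcription factor (1.56 and 1.17 TPM in Aire-KO, 1.61 to 2.78 TPM in WT), Kif11, the spindle-bipolarity kinesin (1.14 and 0.597 TPM in Aire-KO, 2.29 to 3.12 TPM in WT) and Foxm1, the transcription factor of the G2 phase (1.21 and 0.878 TPM in Aire-KO, 2.55 to 3.68 TPM in WT). TPM was used for this order only. All values below are CPM scaled by the TMM method, and levels of the 2 cell sets are not compared since their tables were made and scaled apart.

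An S-phase score and a mitotic score were computed for each library as the mean of log2(CPM + 1) over the 20 and the 31 genes. In Aire-GFP+ cells the S-phase score was 4.83 and 4.09 in Aire-KO libraries, against 5.41, 5.27 and 5.33 in WT libraries. The mitotic score was 4.76 and 4.68 in Aire-KO libraries, against 5.44, 5.09 and 5.40 in WT libraries. Both scores were lower in each Aire-KO library than in any WT library, and the second Aire-KO library stood apart from the first in its S-phase score only.

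Across the 16 mTEChi libraries the S-phase score lay between 4.59 and 5.85 and the mitotic score between 4.70 and 5.67. The lowest S-phase score was that of the first topotecan library and the highest that of the second DMSO library. Replicates of 1 group often differed as much as groups did. In WT PBS the mitotic score was 4.73 in replicate 1 and 5.67 in replicate 2, a difference of 0.94, and 29 of 31 mitotic genes were higher in replicate 2. In topotecan the S-phase score was 4.59 and 5.09 while the mitotic score was 5.17 and 4.70, so the 2 replicates ranked in opposite order by the 2 scores. In DMSO both scores were higher in replicate 2, by 0.60 (S-phase) and 0.57 (mitotic), and all 20 S-phase genes were. The first WT PBS library and the second Aire-KO spermidine library had the widest excess of S-phase over mitotic score, 0.73 and 0.58.

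**Figure D1:**
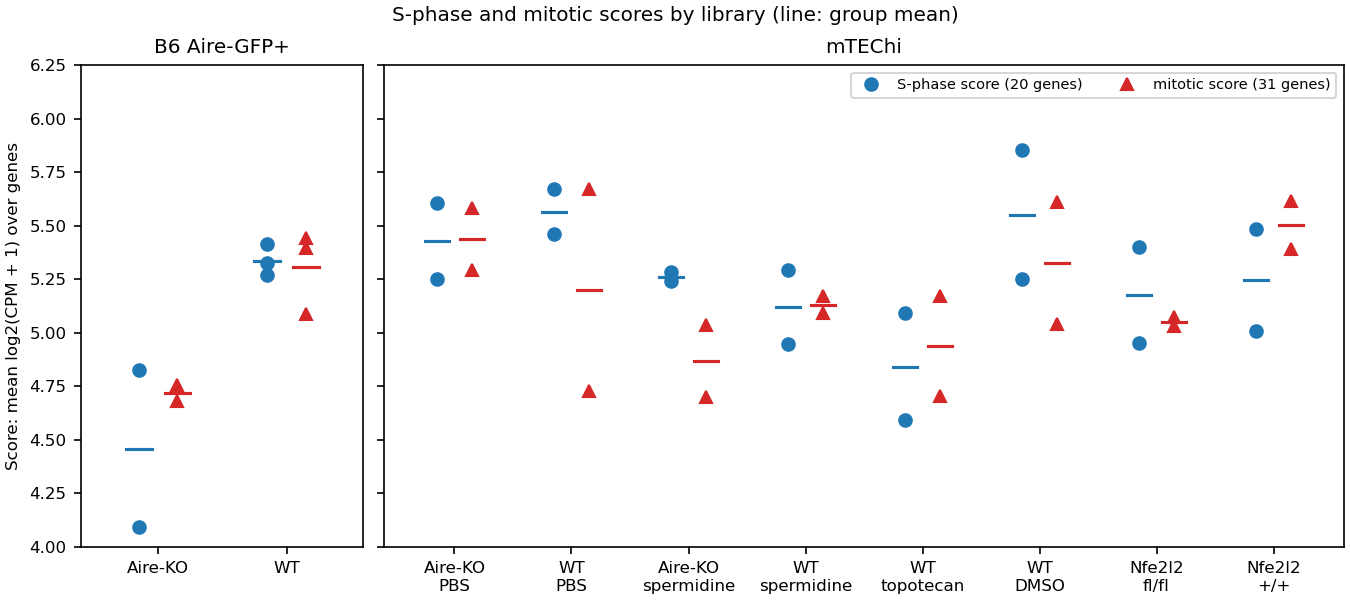
S-phase score (circles) and mitotic score (triangles) of each library, as mean log2(CPM + 1) on the y axis, by group on the x axis, with a line at each group's mean; Aire-GFP+ libraries on the left, mTEChi on the right. Both Aire-KO Aire-GFP+ libraries lie below the 3 WT libraries in both scores, while the 2 WT PBS mTEChi libraries are 0.94 apart in mitotic score.

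Aire-KO against WT in Aire-GFP+ cells asks whether loss of Aire changes the cycle program in the cells that transcribe the Aire locus. With edgeR's quasi-likelihood test and Benjamini-Hochberg adjustment over 17923 genes, 24 of 51 members fell in Aire-KO cells and 2 rose, at adjusted p below 0.05. The difference between these genotypes touched 41.3% of all genes tested, with 22.3% lower and 19% higher, and the share of members called lower stands against that background. Of the S-phase genes, 12 of 20 fell, 2 rose and 6 did not pass the test, with a median log2 fold change of -1.05. Of the mitotic genes, 12 of 31 fell and 19 did not pass, with a median of -0.60, while the median over all genes was -0.12. The Aire-KO group lay wholly below WT for 13 of 20 S-phase and 18 of 31 mitotic genes, as it did for 34.6% of all genes.

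All 6 subunits of the MCM replicative helicase on the list fell. Mcm3 was at 30.1 and 11.2 CPM in Aire-KO libraries, against 74.4, 81.2 and 64.8 CPM in WT libraries, a log2 fold change of -1.84 ± 0.36 (SE, edgeR adjusted p = 0.0050). Mcm6 was at 47.6 and 33.5 CPM in Aire-KO libraries, against 95.1, 93.2 and 96.1 CPM in WT libraries (log2 fold change -1.23 ± 0.17, edgeR adjusted p = 0.0011). Mcm2 was at 19.6 and 13.1 CPM in Aire-KO libraries, against 45.1, 45.5 and 39.97 CPM in WT libraries (log2 fold change -1.42 ± 0.21, edgeR adjusted p = 0.0015). For each of these subunits no Aire-KO library reached the lowest WT library, and the second Aire-KO library was the lowest. Mcm5 had a log2 fold change of -1.11 and Mcm4 and Mcm7 fell less, to means of 25.6 CPM (Mcm4) and 35.9 CPM (Mcm7) in Aire-KO, against 48.8 and 70.9 CPM in WT. Cdt1, which loads the helicase, fell by 1.38 on the log2 scale, to 7.14 and 5.87 CPM in Aire-KO, against 20.6, 16.2 and 14.2 CPM in WT. Its partner Cdc6 did not pass: it was at 8.81 and 0.852 CPM in Aire-KO and at 10.1, 7.05 and 10.1 CPM in WT, so the Aire-KO libraries differed more than the groups.

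The largest fall of all members was that of Uhrf1, the protein that reads hemimethylated DNA behind the replication fork. It was at 26.4 and 11.8 CPM in Aire-KO libraries, against 104, 92.1 and 95.1 CPM in WT libraries, a log2 fold change of -2.36 ± 0.30 (SE, edgeR adjusted p = 0.00075). Both Aire-KO libraries were far below the lowest WT library. Hells, a chromatin remodeller that acts with DNA methylation, fell by 1.47 on the log2 scale, to 6.07 and 5.49 CPM in Aire-KO, against 15.9, 17.8 and 14.2 CPM in WT. The G1/S cyclins fell too: Ccne2 by 2.01, to 5.71 and 2.18 CPM in Aire-KO, against 17.97, 14.6 and 14.7 CPM in WT, and Ccne1 by 1.52, to 3.33 and 3.12 CPM, against 6.36, 9.87 and 11.4 CPM.

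The suppliers of nucleotides divided. Rrm1, the large subunit of ribonucleotide reductase, fell to 52.5 and 38.1 CPM in Aire-KO libraries, against 101, 90.9 and 111 CPM in WT libraries (log2 fold change -1.16 ± 0.18, edgeR adjusted p = 0.0015). Its S-phase partner Rrm2 was at 79.5 and 24.2 CPM in Aire-KO and at 113, 95.9 and 101 CPM in WT, and did not pass (edgeR adjusted p = 0.079). Tyms, which makes thymidylate, was at 79.0 and 37.4 CPM in Aire-KO and at 57.1, 50.4 and 53.9 CPM in WT. Tk1, which salvages thymidine, was at 31.1 and 22.3 CPM in Aire-KO and at 27.1, 22.04 and 25.9 CPM in WT. The genotypes overlapped in Tyms, in Tk1 and in the transcription factor E2f1, and none of the 3 passed. Noncoding transcripts held 49.3% of the WT counts of Tk1, and with coding transcripts alone its log2 fold change was -0.64, which did not pass.

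Pcna, the sliding clamp, went the other way from the helicase. It was at 158 and 124 CPM in Aire-KO libraries, against 90.8, 65.1 and 86.6 CPM in WT libraries, a log2 fold change of 0.81 ± 0.17 (SE, edgeR adjusted p = 0.0078), and no library of one genotype lay among those of the other. Its main coding transcript was at 140 ± 22.6 CPM in Aire-KO (SD, n = 2) and 76.4 ± 14.0 CPM in WT (SD, n = 3). Cdc45, a helicase cofactor, also rose, to 110 and 101 CPM in Aire-KO, against 66.1, 74.2 and 72.7 CPM in WT (log2 fold change 0.57 ± 0.12, edgeR adjusted p = 0.0076). That rise sat in a noncoding transcript with a retained intron, at 89.3 ± 0.347 CPM in Aire-KO (SD, n = 2) and 47.4 ± 5.15 CPM in WT (SD, n = 3). The main coding transcript of Cdc45 was at 10.9 ± 2.83 CPM in Aire-KO (SD, n = 2) and 20.9 ± 1.99 CPM in WT (SD, n = 3). With coding transcripts alone, an alternative added after the data were seen, Cdc45 had a log2 fold change of -0.52 (edgeR adjusted p = 0.163). Cdc45 also shares 209 exonic bases with Ufd1 on the opposite strand, and the protocol does not mark strand. Gins2, the GINS subunit, shares 67.3% of its exonic bases with Gse1, and its value is uncertain for that reason; it did not pass (log2 fold change 0.37, edgeR adjusted p = 0.056). Noncoding transcripts held 57.8% of its WT counts, and with coding transcripts alone its log2 fold change was 0.16.

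Among the mitotic genes, those called lower spanned kinases, kinesins and cytokinesis. Plk1, the Polo kinase, was at 15.8 and 21.7 CPM in Aire-KO libraries, against 64.3, 40.5 and 55.3 CPM in WT libraries, a log2 fold change of -1.50 ± 0.24 (SE, edgeR adjusted p = 0.0021). Ttk, the checkpoint kinase Mps1, was at 9.04 and 5.30 CPM in Aire-KO, against 17.6, 18.3 and 18.6 CPM in WT (log2 fold change -1.35 ± 0.29, edgeR adjusted p = 0.0075). In both genes the genotypes did not overlap. The cytokinesis genes Kif20a, a kinesin of the central spindle, Prc1, the bundler of its microtubules, and Ect2, the activator of RhoA at the cleavage furrow, fell by 1.45, 1.38 and 1.37 on the log2 scale. Kif20a was at 21.5 and 26.9 CPM in Aire-KO, against 62.6, 59.1 and 77.2 CPM in WT. Prc1 was at 27.3 and 24.8 CPM in Aire-KO, against 78.1, 42.9 and 82.4 CPM in WT. Ect2 was at 8.93 and 7.57 CPM in Aire-KO, against 23.5, 24.3 and 16.1 CPM in WT. Noncoding transcripts held 37.1% of the WT counts of Ect2. Its main coding transcript was at 0 CPM in both Aire-KO libraries and at 0, 8.63 and 14.4 CPM in WT. With coding transcripts alone the log2 fold change of Ect2 was -10, a size that rests on counts near 0. Kif20a shares 29.3% of its exonic bases with Cdc23 on the opposite strand, so part of its counts may be from that gene. The other 7 mitotic genes that fell, with log2 fold changes between -1.10 and -0.68, were the cyclin Ccna2, the kinases Aurkb and Bub1b, the spindle proteins Kif11, Tpx2 and Nusap1, and Foxm1.

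Some members used as everyday marks of proliferation were not among them, and 4 are given here. Of these, Cdc20 and Birc5 were added after their values were seen. Other such marks were called: Mcm2 (log2 fold change -1.42) and Ccna2 (-1.04) lower, and Pcna (0.81) higher. Mki67, the Ki-67 antigen, was at 49.9 and 56.6 CPM in Aire-KO and at 52.95, 38.5 and 51.2 CPM in WT Aire-GFP+ cells. Cdk1 was at 164 and 139 CPM in Aire-KO and at 146, 105 and 127 CPM in WT. Cdc20 was at 99.2 and 84.5 CPM in Aire-KO and at 107, 82.2 and 103 CPM in WT. Birc5, the survivin of the chromosomal passenger complex, was at 50.1 and 45.7 CPM in Aire-KO and at 51.6, 34.2 and 45.1 CPM in WT. In all 4 genes the genotypes overlapped and the test was not passed. Top2a, the topoisomerase that untangles sister chromatids and no member of the list, was at 67.6 and 36.2 CPM in Aire-KO and at 69.7, 61.4 and 83.6 CPM in WT. A difference between the genotypes in Mki67, Cdk1, Cdc20 and Birc5 was not detectable with these libraries on the TMM scale, which does not show that they were alike. Their direction depends on the scaling. With library totals alone, all 31 mitotic genes had negative log2 fold changes, beside a median of -0.51 over all genes.

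**Figure D2:**
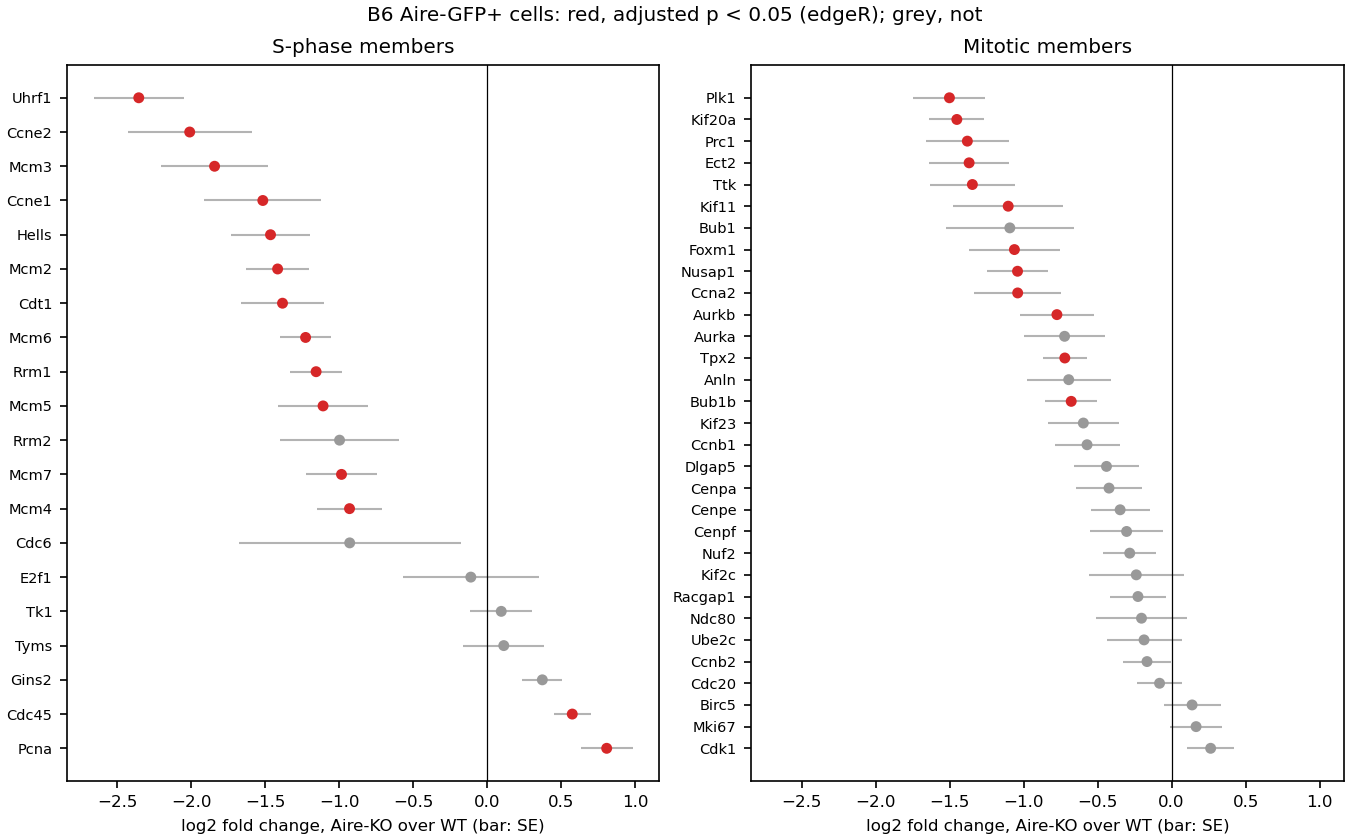
Log2 fold change (x axis, Aire-KO over WT in Aire-GFP+ cells) of each S-phase gene (left) and mitotic gene (right), ordered by value; bars are SE and red points passed the test. The S-phase genes run from -2.36 (Uhrf1) to 0.81 (Pcna) and the mitotic genes from -1.50 (Plk1) to 0.26 (Cdk1).

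The second Aire-KO library carried part of this result. Without it, the S-phase median was -0.61, beside -0.19 for all genes. Without the first Aire-KO library, the S-phase median was -1.50, beside -0.19 for all genes, and neither Pcna (0.64) nor Cdc45 (0.53) passed. Over all single libraries left out, the S-phase median ran from -1.50 to -0.61 and the mitotic median from -0.72 to -0.49. Scaling by library totals alone moved the median of all genes to -0.51, that of the S-phase genes to -1.45 and that of the mitotic genes to -0.995, so both lists stayed below all genes. On that scale 38 members were called, all lower, and Pcna (0.41) and Cdc45 (0.17) did not pass. The share of all genes called on that scale is not given, so the 38 calls have no background. The summed levels of several lists of cell type markers differed between the genotypes, while their genes went both ways. Of 15 mTEC markers tested, 7 were called higher and 3 lower, and of 14 thymocyte markers tested, 2 were called higher and 3 lower (median log2 fold change 0.05). The summed level of 15 mTEC markers was 77460 to 81460 CPM in Aire-KO and 39950 to 41890 CPM in WT, and that of 7 markers of cortical and immature epithelium was 3231 to 3300 CPM in Aire-KO and 1085 to 1425 CPM in WT. The summed level of 15 thymocyte markers was 181 to 187 CPM in Aire-KO and 115 to 149 CPM in WT, with Ptprc (CD45) at 2.02 and 0.852 CPM in Aire-KO, against 5.64 to 6.43 CPM in WT. Markers of myeloid and B cells summed to 2156 to 2161 CPM in Aire-KO and 964 to 1393 CPM in WT, and those of fibroblasts to 264 to 344 CPM in Aire-KO and 87.6 to 136 CPM in WT. Most single genes went against these 2 sums. Of 8 myeloid and B cell markers, 7 had negative log2 fold changes (median -1.08), with 3 called lower and 1 higher. Of 6 fibroblast markers tested, 4 were negative (median -1.2), with 2 called lower and 2 higher. Of all genes, 22.3% were called lower and 19% higher. The part of these markers in the result was not tested.

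Other genes of the same pathways were counted in Aire-KO Aire-GFP+ cells beside the same background, 22.3% of all genes lower, 19% higher and a median of -0.12. Of 41 further S-phase genes, 9 fell and 4 rose, with a median log2 fold change of -0.19. Cdc7, the kinase that fires origins, fell by 1.87 on the log2 scale, with an SE of 0.26 (edgeR adjusted p = 0.0011). Pola1 and Pola2, subunits of DNA polymerase alpha, rose, while the primase subunits Prim1 (log2 fold change -0.07) and Prim2 (log2 fold change -0.39) did not pass. Pola2 averaged 233 CPM in Aire-KO and 111 CPM in WT (log2 fold change 1.07 ± 0.10, edgeR adjusted p = 0.00022). Of 58 further mitotic genes, 18 fell and 2 rose, with a median of -0.70. The risers were Pttg1, the securin that holds back separase, at a mean of 188 CPM in Aire-KO and 71.6 CPM in WT, and Spc25, a kinetochore subunit, at 86.6 and 51.4 CPM. Of 24 regulators of the G1 phase, 7 fell and 4 rose. Ccnd2, cyclin D2, averaged 330 CPM in Aire-KO and 606 CPM in WT, and its kinase partner Cdk4 133 CPM in Aire-KO and 227 CPM in WT. Of 6 inhibitors of cyclin-dependent kinases tested, 1 rose and none fell (Cdkn2c, p18, to 47.9 CPM in Aire-KO against 21.3 CPM in WT), and Cdkn1a, p21, was at 192 and 181 CPM in Aire-KO and at 189 to 221 CPM in WT.

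Promoters of the members were read to show the letters around the starts of the genes. RefSeq windows of 300 bases on GRCm38.p6, from 250 before to 50 after each annotated start, were matched by symbol for 42 of 51 members, 17 S-phase and 25 mitotic, of which 4 had 2 windows. They were searched on both strands for the 6-letter CHR word TTTGAA, known from mitotic promoters, and for 4 E2F words of 8 letters, TTTCCCGC, TTTCGCGC, TTTGCCGC and TTTGGCGC. Overlapping matches were kept. An E2F word lay in the windows of 8 of 17 S-phase genes (47.1%), 1 of 25 mitotic genes (4%) and 2.6% of 27025 gene symbols. A CHR word lay in those of 2 of 17 S-phase genes (11.8%), 19 of 25 mitotic genes (76%) and 20.2% of all symbols. Of the 8 S-phase genes with an E2F word, Cdt1, Hells, Mcm3, Mcm5, Mcm6, Mcm7 and Uhrf1 were the 7 called lower in Aire-KO Aire-GFP+ cells and Cdc6 was the exception. Of the 9 S-phase genes without one, 3 were called lower and 2 higher. Of the mitotic genes, 6 of 19 with a CHR word and 1 of 6 without one were called lower. Of all genes tested, 22.3% were called lower and 19% higher. The shares called among all genes with and without these words were not counted, and a link between word and call was not tested. These matches are descriptions of letters, not of binding, and a window with no match says only that these words were not in it.

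The windows of 4 S-phase genes are shown since they hold the largest fall (Uhrf1), 2 helicase subunits and 1 of the 2 genes that rose (Pcna). Capitals mark E2F and CHR words, and each window is written 5′ to 3′ along the gene. Uhrf1 lies at chr17:56304063-56304362 on the plus strand and is the window of its 2 that holds a word, Mcm3 at chr1:20820263-20820562 on the minus strand, Mcm6 at chr1:128359656-128359955 on the minus strand and Pcna at chr2:132253131-132253430 on the minus strand.
Uhrf1: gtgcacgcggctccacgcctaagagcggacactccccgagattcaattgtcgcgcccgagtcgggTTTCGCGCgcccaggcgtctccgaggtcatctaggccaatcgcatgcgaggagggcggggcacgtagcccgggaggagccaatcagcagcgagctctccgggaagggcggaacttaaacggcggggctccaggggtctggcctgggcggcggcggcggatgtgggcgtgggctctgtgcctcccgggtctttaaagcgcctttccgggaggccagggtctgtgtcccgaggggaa
Mcm3: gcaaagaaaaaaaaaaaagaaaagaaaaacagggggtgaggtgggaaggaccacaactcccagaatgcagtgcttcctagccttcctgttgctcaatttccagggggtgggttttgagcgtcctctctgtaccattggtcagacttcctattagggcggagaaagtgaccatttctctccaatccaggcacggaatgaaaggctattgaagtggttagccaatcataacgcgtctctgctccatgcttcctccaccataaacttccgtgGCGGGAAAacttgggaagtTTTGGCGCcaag
Mcm6: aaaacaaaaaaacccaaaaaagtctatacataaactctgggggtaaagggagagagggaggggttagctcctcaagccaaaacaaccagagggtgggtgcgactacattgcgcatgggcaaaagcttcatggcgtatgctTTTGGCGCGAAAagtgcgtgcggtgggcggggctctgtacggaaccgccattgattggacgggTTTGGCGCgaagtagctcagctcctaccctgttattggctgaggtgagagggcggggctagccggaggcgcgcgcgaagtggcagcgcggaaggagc
Pcna: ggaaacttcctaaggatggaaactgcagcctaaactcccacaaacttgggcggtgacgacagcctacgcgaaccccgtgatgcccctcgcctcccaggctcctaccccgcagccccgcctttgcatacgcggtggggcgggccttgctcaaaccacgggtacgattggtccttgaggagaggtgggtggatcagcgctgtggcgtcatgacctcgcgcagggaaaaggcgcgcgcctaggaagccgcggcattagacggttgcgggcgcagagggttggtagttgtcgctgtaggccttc
The Mcm6 window holds 3 E2F words, of which 2 overlap on opposite strands, and the Pcna window holds neither word.

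The windows of 4 mitotic genes are shown for contrast: Plk1 and Ttk fell in Aire-KO Aire-GFP+ cells, Cdk1 did not pass the test, and Racgap1 rose in Aire-KO mTEChi. Plk1 lies at chr7:122159185-122159484 on the plus strand, Ttk at chr9:83834439-83834738 on the plus strand, Cdk1 at chr10:69352863-69353162 on the minus strand and Racgap1 at chr15:99651607-99651906 on the minus strand.
Plk1: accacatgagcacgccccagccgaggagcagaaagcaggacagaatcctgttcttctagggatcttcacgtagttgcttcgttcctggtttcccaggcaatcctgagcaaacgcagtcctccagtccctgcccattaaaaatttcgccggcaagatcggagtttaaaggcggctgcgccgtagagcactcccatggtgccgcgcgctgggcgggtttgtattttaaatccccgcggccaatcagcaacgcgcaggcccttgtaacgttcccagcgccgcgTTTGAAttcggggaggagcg
Ttk: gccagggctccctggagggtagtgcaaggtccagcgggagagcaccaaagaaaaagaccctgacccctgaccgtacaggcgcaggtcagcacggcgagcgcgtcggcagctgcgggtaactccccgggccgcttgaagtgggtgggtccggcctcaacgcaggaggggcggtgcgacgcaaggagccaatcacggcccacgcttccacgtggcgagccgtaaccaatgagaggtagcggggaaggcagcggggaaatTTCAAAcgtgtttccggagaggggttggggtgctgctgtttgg
Cdk1: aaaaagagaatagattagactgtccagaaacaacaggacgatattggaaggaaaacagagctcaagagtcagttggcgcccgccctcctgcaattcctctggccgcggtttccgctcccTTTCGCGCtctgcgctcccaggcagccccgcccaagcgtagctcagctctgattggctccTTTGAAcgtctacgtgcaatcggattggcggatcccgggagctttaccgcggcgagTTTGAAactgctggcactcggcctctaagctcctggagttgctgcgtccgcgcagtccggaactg
Racgap1: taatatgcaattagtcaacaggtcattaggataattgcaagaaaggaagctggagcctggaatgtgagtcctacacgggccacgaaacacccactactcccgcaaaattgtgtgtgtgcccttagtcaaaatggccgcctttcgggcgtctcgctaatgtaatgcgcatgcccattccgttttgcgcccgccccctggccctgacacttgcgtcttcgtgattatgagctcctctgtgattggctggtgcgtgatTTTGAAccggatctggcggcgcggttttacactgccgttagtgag
All 4 windows hold a CHR word, and none of the 6 mitotic genes without one is shown. The 4 windows therefore do not tell whether the word goes with a change. Racgap1 did not pass in Aire-GFP+ cells (log2 fold change -0.23). In the mitotic genes, 17 of the 19 had a CHR word whose first base lay from -30 to 45 relative to the start. The share of all promoters with a CHR word in that interval was not counted, so this position has no background. Cdk1 was the 1 member whose windows held both kinds of word.

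**Figure D3:**
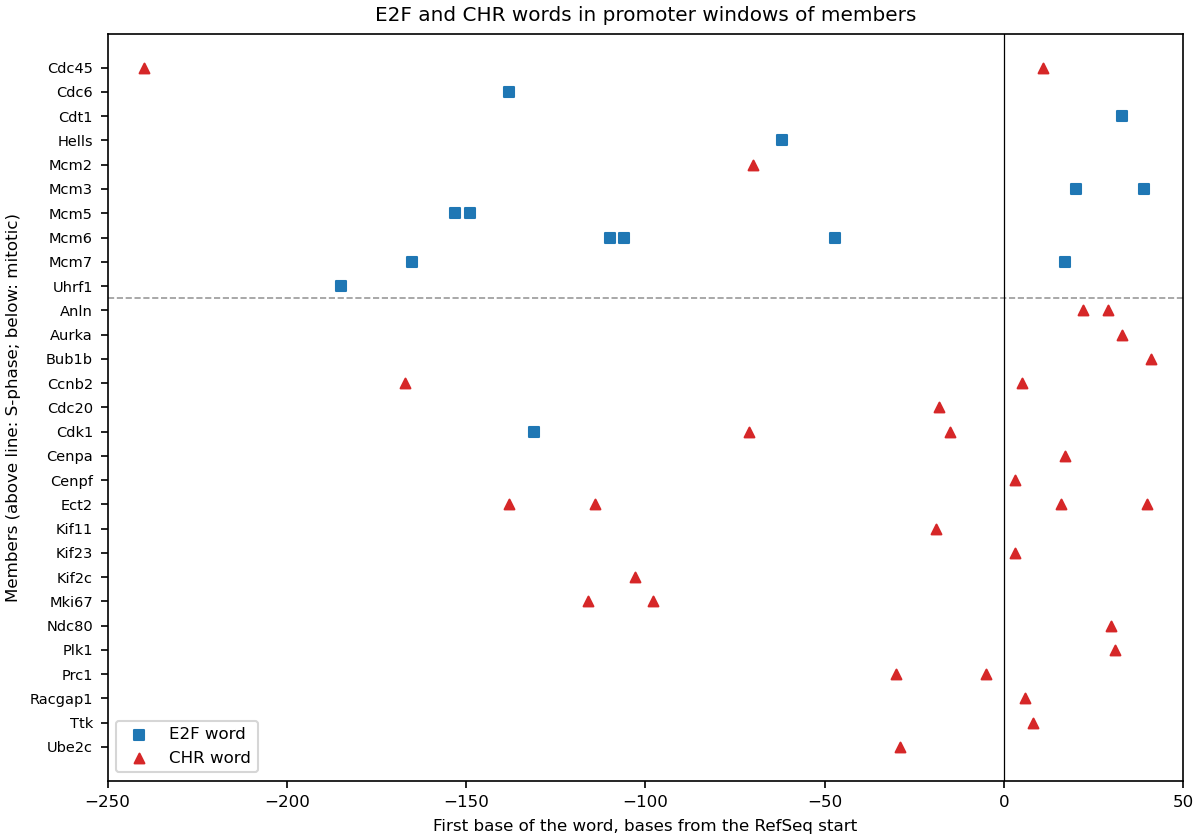
Position of each E2F word (squares) and CHR word (triangles) in the promoter windows of members that hold one, as bases from the RefSeq start (x axis), with S-phase genes above the dashed line and mitotic genes below it. E2F words of the S-phase genes are spread from -185 to 39, while 17 mitotic genes have a CHR word from -30 to 45, an interval not counted over all promoters.

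In mTEChi, Aire-KO against WT asks the same question in cells sorted without the reporter, after PBS and after spermidine. With PBS, 1 of 51 members was called: Racgap1, a GTPase-activating protein of cytokinesis, rose to 115 and 102 CPM in Aire-KO libraries, against 76.8 and 43.2 CPM in WT libraries (log2 fold change 0.84 ± 0.25, edgeR adjusted p = 0.046). By comparison 10.3% of 18418 genes were called there, 5.21% higher and 5.08% lower. The genotypes did not overlap in Racgap1. Its lower WT library was replicate 2, in which 29 other mitotic genes were higher than in replicate 1. Aire-KO lay wholly above WT for 2 S-phase and 4 mitotic genes, as did 25.6% of all genes, and wholly below for 3 S-phase and 0 mitotic genes, as did 29.7% of all genes. Mcm5 was at 61.6 and 90.9 CPM in Aire-KO and at 123 and 154 CPM in WT (log2 fold change -0.85, edgeR adjusted p = 0.094), and Pcna was at 66.8 and 65.0 CPM in Aire-KO and at 48.4 and 45.1 CPM in WT (log2 fold change 0.49, edgeR adjusted p = 0.14). The S-phase median was -0.17 and the mitotic median 0.17. The mitotic median was -0.28 without WT replicate 1 and 0.76 without WT replicate 2, and its sign also turned without Aire-KO replicate 2 (-0.05). Without WT replicate 2, 5 members were called, all higher, Racgap1 not among them. With either Aire-KO library left out, 0 were called.

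With spermidine, 1 of 51 members was called, where 9.11% of all genes were, 4.77% higher and 4.34% lower. Pcna rose to 54.9 and 60.6 CPM in Aire-KO libraries, against 25.9 and 39.9 CPM in WT libraries (log2 fold change 0.82 ± 0.21, edgeR adjusted p = 0.025), with no overlap. The call was lost without WT replicate 1 (0.53) and without either Aire-KO library (0.75 and 0.89). Dlgap5, a spindle protein, was at 15.5 and 9.84 CPM in Aire-KO and at 29.4 and 19.3 CPM in WT (log2 fold change -0.94, edgeR adjusted p = 0.17), and Tk1 was at 70.4 and 81.3 CPM in Aire-KO and at 48.5 and 48.6 CPM in WT (log2 fold change 0.64, edgeR adjusted p = 0.18). The S-phase median was 0.03 and the mitotic median -0.28, with 25 of 31 mitotic genes negative. With single libraries left out the S-phase median ran from -0.07 to 0.34 and the mitotic median from -0.49 to -0.14. Aire-KO lay wholly above WT for 4 S-phase and 2 mitotic genes, against 26.8% of all genes, and wholly below for 1 S-phase and 14 mitotic genes, against 29.4%.

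The mean of both Aire-KO effects, which uses 4 libraries a genotype, called 2 members, where 22.8% of all genes were called, 10.3% higher and 12.5% lower. Pcna had a log2 fold change of 0.66 ± 0.15 (edgeR adjusted p = 0.0051) and was higher in all 4 Aire-KO libraries than in any WT library. Racgap1 had a log2 fold change of 0.57 ± 0.18 (edgeR adjusted p = 0.031) and was likewise higher in all 4, and its call was lost with any 1 library left out except WT PBS replicate 1. Tk1 came next (log2 fold change 0.55, edgeR adjusted p = 0.061). The S-phase median was -0.04 and the mitotic median -0.06, beside -0.05 for all genes. With single libraries left out the S-phase median ran from -0.17 to 0.11 and the mitotic median from -0.28 without WT PBS replicate 1 to 0.25 without WT PBS replicate 2, so neither kept its sign. Uhrf1, which fell most in Aire-GFP+ cells, was at 132 and 172 CPM in Aire-KO and at 110 and 136 CPM in WT with PBS, and at 107 and 94.2 CPM in Aire-KO and at 88.9 and 103 CPM in WT with spermidine, with overlap in both. Pcna was the member called higher in Aire-KO cells both in the Aire-GFP+ set and in the mTEChi mean. The Aire-KO effects of the 2 sets of cells were not tested against each other.

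Of the further genes, few were called in the mTEChi mean, where 10.3% of all genes were called higher and 12.5% lower. Of 41 S-phase genes 2 rose and 1 fell, and of 58 mitotic genes 1 rose. Of 24 regulators of the G1 phase 1 rose and 1 fell, and of 6 inhibitors of cyclin-dependent kinases 2 fell, Cdkn1c (p57) and Cdkn2b (p15). Pola2 was among them, at a mean of 94.3 CPM in Aire-KO and 61.5 CPM in WT (log2 fold change 0.62 ± 0.11, edgeR adjusted p = 0.00091). Tfdp1, the partner protein of E2F factors, averaged 221 CPM in Aire-KO and 109 CPM in WT (log2 fold change 1.02 ± 0.12, edgeR adjusted p = 3.1e-05). The summed level of the 15 mTEC markers was 64720 to 68070 CPM in the Aire-KO libraries and 35730 to 38320 CPM in the WT libraries of this experiment, and the part of these markers in the result was not tested.

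Spermidine against PBS asks what this polyamine, injected into the mouse, does to the genes. No member was called in WT cells, in Aire-KO cells, in the mean of both or in the difference of the 2 effects, and the smallest edgeR adjusted p was 0.991. Of all genes, 0% were called in WT cells, in the mean and in the difference, and 0.00543% in Aire-KO cells. An unadjusted edgeR p below 0.05 was held by 1 of 51 members in WT cells, 8 in Aire-KO cells, 6 in the mean and 1 in the difference. Of all 18418 genes, 709, 759, 820 and 619 held one, in the same order. DESeq2 called 0 members in each.

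The direction was mostly downward in these libraries. In WT cells all 20 S-phase genes had negative log2 fold changes, with a median of -0.43, beside 0.00 for all genes. The smallest unadjusted p was that of Pcna, at 25.9 and 39.9 CPM with spermidine and at 48.4 and 45.1 CPM with PBS (log2 fold change -0.52 ± 0.21). Uhrf1 was at 88.9 and 103 CPM with spermidine and at 110 and 136 CPM with PBS, and Tyms at 30.1 and 32.0 CPM with spermidine and at 39.0 and 54.8 CPM with PBS. Spermidine libraries lay wholly below PBS libraries for 9 of 20 S-phase genes, against 16.7% of all genes, and wholly above for 0, against 16%, and the S-phase median stayed negative with any of the 4 libraries left out (-0.68 to -0.25). The WT mitotic median of -0.21 did not: it was 0.44 without PBS replicate 2. Erythroid markers summed to 26.7 to 55.9 CPM with spermidine and 111 to 298 CPM with PBS in these WT libraries, with a median log2 fold change of -3.58 over the 5 tested, none called, and their part in the values was not tested.

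In Aire-KO cells 16 of 20 S-phase genes had negative log2 fold changes, with a median of -0.17 that ran from -0.36 to 0.00 with single libraries left out. Of 31 mitotic genes, 30 had negative log2 fold changes, with a median of -0.61, and 24 were wholly below PBS, against 18.5% of all genes, and 0 wholly above, against 17.5%. Aurkb, the kinase of the chromosomal passenger complex, was at 20.4 and 20.2 CPM with spermidine and at 43.4 and 46.3 CPM with PBS (log2 fold change -1.14 ± 0.41). Nusap1, a spindle-binding protein, was at 31.6 and 18.1 CPM with spermidine and at 39.1 and 54.6 CPM with PBS (log2 fold change -0.91 ± 0.36). Uhrf1 had the smallest unadjusted p, at 107 and 94.2 CPM with spermidine and at 132 and 172 CPM with PBS (log2 fold change -0.60 ± 0.17). None of the 3 overlapped between treatments, and none passed after adjustment. The mitotic median ran from -0.86 to -0.41 with single libraries left out. The summed level of the thymocyte markers was 330 to 334 CPM with spermidine and 222 to 225 CPM with PBS in these cells, and that of endothelial markers 67.3 to 80.6 CPM with spermidine and 37.3 to 54.2 CPM with PBS. The part of both in the values was not tested. The difference between the effects in Aire-KO and WT cells had an S-phase median of 0.33 and a mitotic median of -0.49, and called no gene. With single libraries left out these medians ran from 0.09 to 0.49 (S-phase) and from -1.10 without WT PBS replicate 2 to -0.04 without WT PBS replicate 1 (mitotic).

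Topotecan against DMSO asks what a poison of topoisomerase I, which traps the enzyme on DNA, does in mTEChi of WT mice. Of the 51 members 1 was called, where 0.652% of all genes were, 0.195% higher and 0.456% lower. Uhrf1 fell to 45.1 and 43.3 CPM with topotecan, against 103 and 114 CPM with DMSO, a log2 fold change of -1.30 ± 0.18 (SE, edgeR adjusted p = 0.0077). The replicates of each treatment were close and the treatments far apart, and the value was between -1.38 and -1.26 with any 1 library left out, each time past the test. In a fit to these 4 libraries alone the value was -1.30 but no member passed (edgeR adjusted p = 0.18 for Uhrf1).

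Other members were lower in level without passing. Rrm2 was at 26.5 and 46.5 CPM with topotecan and at 74.5 and 125 CPM with DMSO (log2 fold change -1.45 ± 0.39, edgeR adjusted p = 0.108). Racgap1 was at 61.0 and 45.2 CPM with topotecan and at 88.0 and 106 CPM with DMSO (log2 fold change -0.87 ± 0.25, edgeR adjusted p = 0.12). The treatments did not overlap in either. Of 20 S-phase genes 19 had negative log2 fold changes (median -0.63), as did 27 of 31 mitotic genes (median -0.35), beside a median of 0.01 over all genes. Topotecan libraries lay wholly below DMSO for 10 S-phase and 11 mitotic genes, against 19.8% of all genes, and wholly above for 0, against 19.9%. Mki67 showed how the replicates split: it was at 114 and 45.9 CPM with topotecan and at 98.3 and 132 CPM with DMSO. Top2a was at 131 and 95.6 CPM with topotecan and at 163 and 276 CPM with DMSO. Left out singly, the 4 libraries gave S-phase medians of -1.12 to -0.26 and mitotic medians of -0.71 to -0.18.

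Beside these values, several other lists differed between the treatments. Plk2, a stress-induced kinase, was the 1 gene of 20 listed p53 targets called, at a mean of 149 CPM with topotecan and 74.0 CPM with DMSO (log2 fold change 1.01 ± 0.21, edgeR adjusted p = 0.044). Cdkn1a was at 226 and 179 CPM with topotecan and at 194 and 174 CPM with DMSO, and Mdm2, the p53 ligase, at 202 and 156 CPM with topotecan and at 180 and 125 CPM with DMSO, so both overlapped. Thymocyte markers summed to 428 to 474 CPM with topotecan and 316 to 374 CPM with DMSO, with Ptprc at 155 and 145 CPM with topotecan and at 54.8 and 107 CPM with DMSO and Cd3e at 16.9 and 11.5 CPM with topotecan and at 9.75 and 16.8 CPM with DMSO. The mTEC markers summed to 22740 to 24900 CPM with topotecan and 28330 to 29430 CPM with DMSO. Markers of myeloid and B cells summed to 1533 to 1553 CPM with topotecan and 1118 to 1274 CPM with DMSO. Of 14 thymocyte markers tested, 11 were positive and 3 negative, with 0 called. Of 15 mTEC markers, 5 were positive and 10 negative, with 2 called lower, as were 0.456% of all genes. Of 8 myeloid and B cell markers, 4 were positive and 4 negative, with 0 called. The part of these markers in the fall of Uhrf1 was not tested.

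Nfe2l2 fl/fl against Nfe2l2 +/+ in Foxn1-cre mTEChi asks what removal of the transcription factor Nrf2 from thymic epithelium does. No member was called by edgeR, which called 0% of all genes, and DESeq2 called 0 members. An unadjusted edgeR p below 0.05 was held by 5 of 51 members and by 973 of 18418 genes. The mitotic genes were lower in level in the libraries labelled fl/fl. Of 31, 30 had negative log2 fold changes (median -0.46), and 20 lay wholly below +/+, against 17.4% of all genes, and 0 wholly above, against 16.5%. Tpx2, the spindle assembly factor that activates Aurora A, was at 64.2 and 56.2 CPM in fl/fl and at 115 and 88.6 CPM in +/+ libraries (log2 fold change -0.76 ± 0.24, edgeR adjusted p = 0.73). Prc1 was at 32.0 and 35.0 CPM in fl/fl and at 87.1 and 55.1 CPM in +/+ libraries (log2 fold change -1.09 ± 0.37, edgeR adjusted p = 0.75). Ube2c was at 60.2 and 42.3 CPM in fl/fl and at 103 and 88.6 CPM in +/+ libraries (log2 fold change -0.91 ± 0.39, edgeR adjusted p = 0.89). The genotypes did not overlap in these 3 genes, and none passed. The S-phase median was -0.06, with 12 of 20 genes negative. With single libraries left out the mitotic median ran from -0.56 to -0.35 and the S-phase median from -0.33 to 0.16, and the S-phase sign turned without +/+ replicate 1 (0.16) or fl/fl replicate 1 (0.06). Mki67 was at 51.7 and 63.8 CPM in fl/fl and at 66.1 and 55.6 CPM in +/+ libraries, with overlap. Erythroid markers summed to 80.1 to 127 CPM in fl/fl and 232 to 299 CPM in +/+ libraries, thymocyte markers to 137 to 161 CPM in fl/fl and 177 to 179 CPM in +/+, endothelial markers to 22.8 to 29.9 CPM in fl/fl and 31.7 to 36.1 CPM in +/+, and mTEC markers to 52210 to 52650 CPM in fl/fl and 48380 to 49550 CPM in +/+. The part of these markers in the values was not tested.

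**Figure D4:**
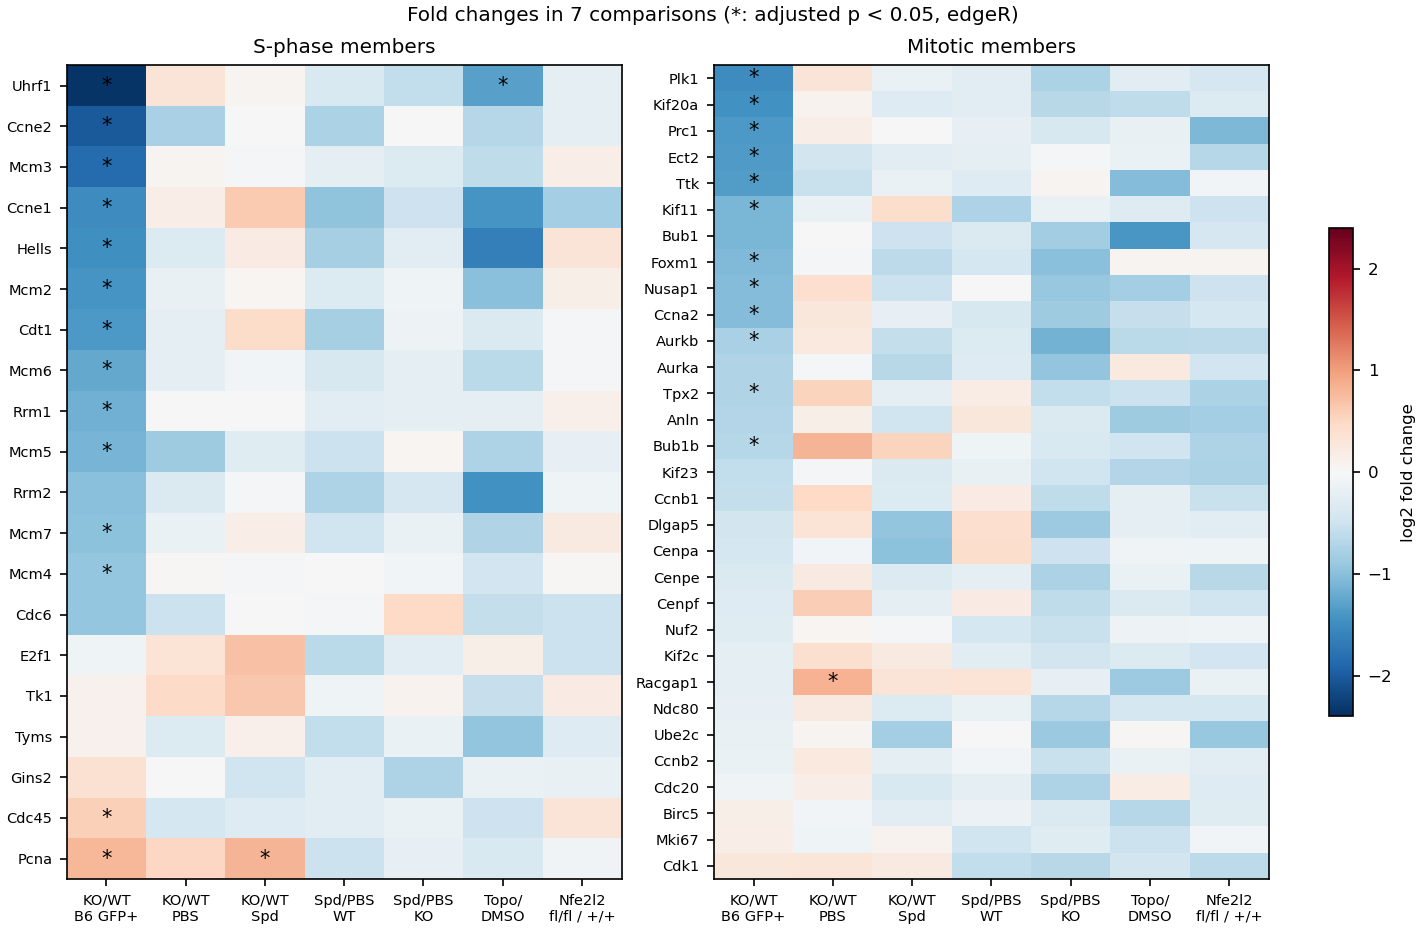
Log2 fold change (colour) of each S-phase gene (left) and mitotic gene (right) in 7 comparisons (columns; KO, Aire-KO; Spd, spermidine; Topo, topotecan), rows ordered by the Aire-GFP+ column; stars mark adjusted p below 0.05. The stars are 26 in the Aire-GFP+ column and 1 each for Racgap1 (Aire-KO with PBS), Pcna (Aire-KO with spermidine) and Uhrf1 (topotecan).

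Uhrf1 and Pcna were the members called both in Aire-GFP+ cells and in an mTEChi comparison. Uhrf1 was lowest in the 2 Aire-KO Aire-GFP+ libraries within that set and in the 2 topotecan libraries within the mTEChi set, where the next library, an Nfe2l2 fl/fl one, was at 73.0 CPM. Pcna was highest in the 2 Aire-KO libraries of the Aire-GFP+ set. In mTEChi it ranged from 25.9 CPM in a WT spermidine library to 66.8 CPM in an Aire-KO PBS library. Mki67 in mTEChi ranged from 45.9 to 132 CPM, and its lowest and second highest libraries were both from topotecan. The comparisons of spermidine and of Aire-KO in mTEChi share libraries, so their values are not independent of each other.

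**Figure D5:**
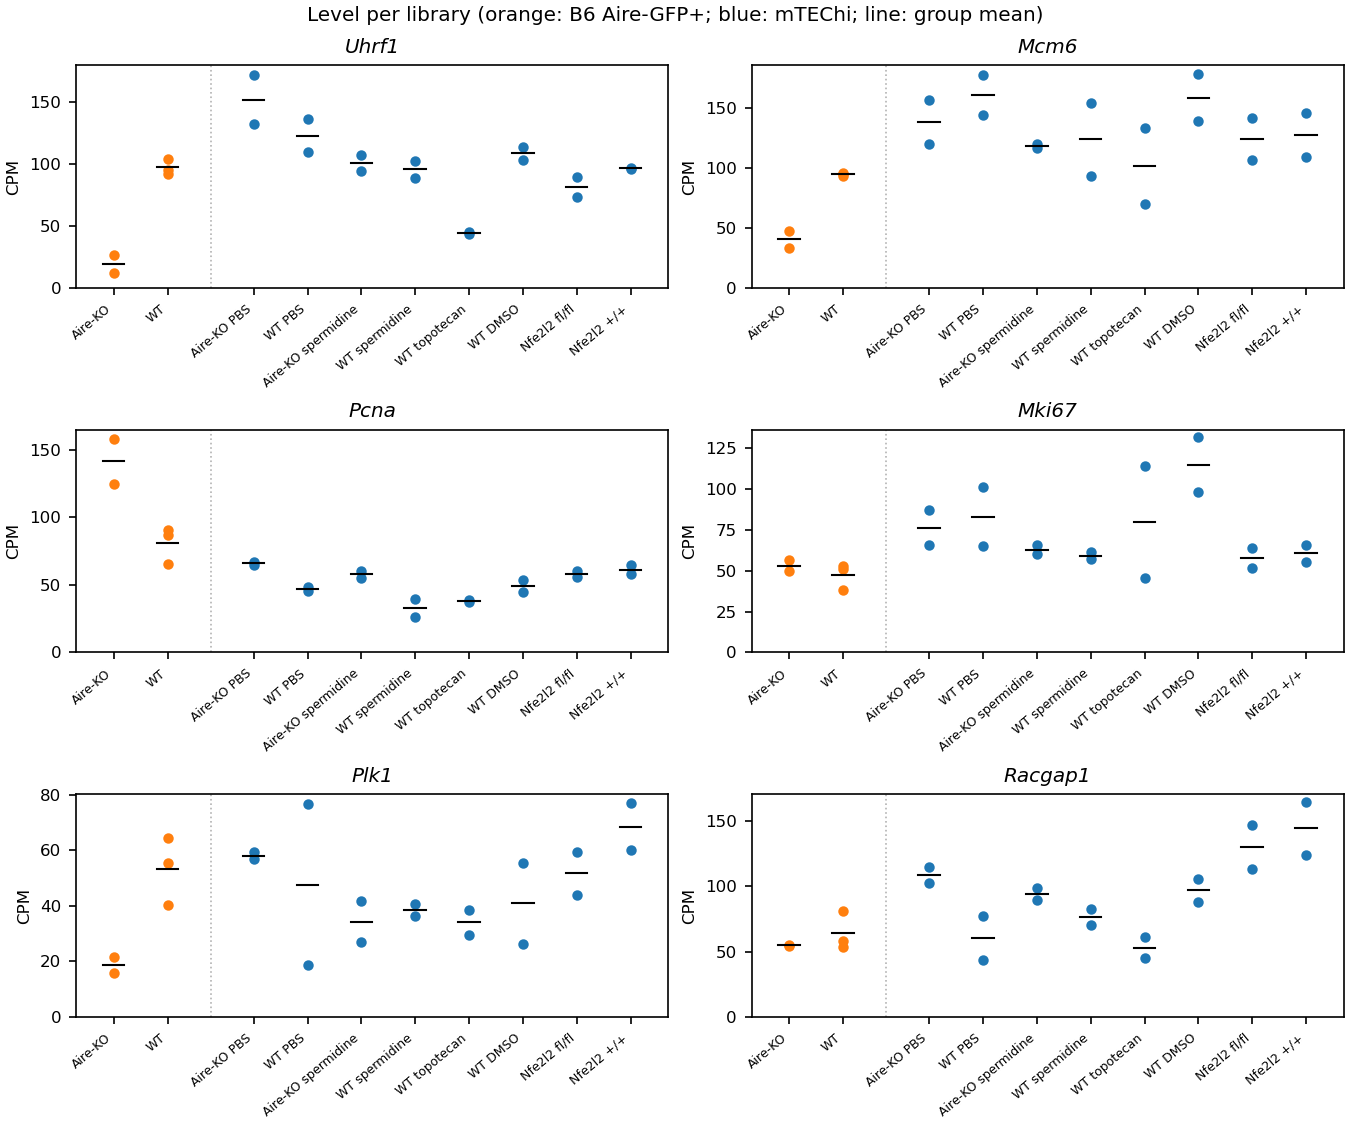
CPM (y axis, from 0) of 6 members in each library, by group (x axis), with a line at the group mean; Aire-GFP+ libraries left of the dotted line, mTEChi right of it, each set scaled on its own. Uhrf1 stands at 45.1 and 43.3 CPM with topotecan, below every other mTEChi library, and the WT PBS replicates are far apart in Plk1.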

How the data were processed

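Per the labels' protocols, cells were isolated by enzyme digestion and sorted, and libraries were made from oligo(dT)-primed cDNA by Smart-seq2 and Nextera XT without molecular identifiers or strand, so reads are not independent molecules. The deposited mTEChi values are raw counts per gene. The deposited Aire-GFP+ values are kallisto estimated counts per transcript, with the authors' TPM beside them. Per the submitters' processing notes, kallisto, STAR, featureCounts, TopHat2 2.1.1, SAMtools 1.3.1 and build mm10 were used. Of 118489 transcripts, 116816 matched a gene of GENCODE on GRCm38, and their estimated counts were summed by gene symbol and rounded.

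The 51 members, the other lists and the tests were chosen with earlier results of these data known. Counts were tested with edgeR 4.0.16 in R 4.3.3 (quasi-likelihood, TMM scaling, filterByExpr, Benjamini-Hochberg over all genes, calls at adjusted p below 0.05): the 5 Aire-GFP+ libraries in 1 fit and the 16 mTEChi libraries in another with a mean per group. Scores use log2(CPM + 1) and have no test. Fold changes are given for members that passed, at most 15 a direction, or for the 3 of smallest p; levels of Cdc6, Rrm2, Tyms, Tk1, Cdc20 and Birc5 were added after their values were seen. Other genes are named only if they passed or define a group or cell type. The steps were tested on simulated data. Alternatives were other scaling, no filter, DESeq2 1.42.0, a replicate block, smaller fits, leaving out each library and, added after the data were seen, coding transcripts only.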

Additional observations from a re-analysis of the deposited data

Results flagged for a closer look

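In 5 genes the Aire-KO and WT libraries did not overlap in 2 comparisons and stood in opposite order. Lack of overlap was common among all genes. Aire-KO lay wholly above WT for 29.3% of them in Aire-GFP+ cells, 25.6% with PBS and 26.8% with spermidine. It lay wholly below for 34.6%, 29.7% and 29.4%. The share of all genes in opposite order was not counted, so the 5 genes are not shown to exceed a background. Between Aire-GFP+ cells and mTEChi with PBS, the log2 fold change of Aire-KO over WT was 0.574 and -0.423 for Cdc45, -0.678 and 0.811 for Bub1b, and -0.722 and 0.533 for Tpx2. Between Aire-GFP+ cells and mTEChi with spermidine it was -1.517 and 0.625 for Ccne1 and -0.678 and 0.535 for Bub1b. The difference between these sets of cells was not tested, since their tables were made and scaled apart. None of the mTEChi values passed edgeR's test, and the Cdc45 value of Aire-GFP+ cells had the other sign with coding transcripts alone. Between mTEChi with PBS and with spermidine the log2 fold change was 0.596 and -0.212 for Cenpf and 0.533 and -0.242 for Tpx2. That difference was tested as an interaction and did not pass for either gene (edgeR adjusted p = 1.0 for both).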

How the results depend on the processing

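The counts of called members in this section are given without the share of all genes called under the same setting. They do not show whether members gained or lost more calls than genes at large. In Aire-GFP+ cells 26 members were called, and 23 to 38 with another scaling, no filter on low counts, DESeq2, a replicate block or coding transcripts alone. Of the called members, Cdc45 changed sign, at -0.518 with coding transcripts. Tk1, which was not called, was there at -0.64 against 0.09. With library totals 2 members had positive values, against 8 as reported. With single libraries left out the count was 15 to 27 there, 0 to 5 for Aire-KO with PBS, 0 to 1 with spermidine and 1 to 3 for their mean. It was 1 each time for topotecan and 0 for the other comparisons. An arm left with 1 library is assumed to vary like the other groups.

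Without the filter the counts were 3 for Aire-KO with PBS, 2 with spermidine, 5 for their mean, 11 for topotecan, 1 for spermidine in Aire-KO cells, 2 for the spermidine mean and 2 for Nfe2l2. DESeq2 gave 2 for Aire-KO with PBS and 3 for topotecan. Size factors of the RLE kind gave 0 for Aire-KO with PBS, and library totals gave 0 for Aire-KO with spermidine. A fit to the compared groups gave 5 for the Aire-KO mean, 2 with spermidine and 0 for topotecan. The cause of these shifts was not tested.

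With the replicate number as a block, 27 members were called in Aire-GFP+ cells, 2 for Aire-KO with PBS, 4 for their mean and 2 for topotecan. Deviations of same-numbered libraries correlated by -0.00975 to 0.0498 over all genes, so no large effect shared by number was seen over all genes. These correlations do not speak for the members alone. The S-phase score was higher in replicate 2 in every mTEChi group but Nfe2l2 +/+, where the difference was -0.48. Elsewhere it ran from 0.04 (Aire-KO spermidine) to 0.60 (DMSO). The mitotic score went either way between replicates. Whether the numbers pair the samples cannot be told from these values, and the labels do not state it.

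Depth limits the low members: a single library held as few as 4 counts of a member in mTEChi and 9 in Aire-GFP+ cells.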
